A study of Homo sapiens with 6 samples.

Results

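E2F and DP proteins are the transcription factors that turn on and off the genes a cell needs to enter and complete DNA replication. The family was read from spots of a human gene expression array whose gene name was E2F1 to E2F8, TFDP1 or TFDP2, with every probe of these genes kept. All 10 genes were on the array, with 15 probes, among 50599 probes for 34423 named genes. All 15 probes passed the detection filter that left 31807 probes for testing.

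The RNA came from 6 tumors grown from BxPC-3 cells, an established line of human pancreatic adenocarcinoma, under the skin of female BALB/c nu/nu mice, young adult athymic animals that lack mature T cells but keep other host cells. The 3 control mice received the vehicle alone, and the 3 treated mice received deferasirox (DFX), an oral iron chelator in clinical use, at 200 mg/kg by gavage on alternate days for 21 days. Each array held 1 tumor, and the comparison of the groups asked which genes differed in tumors exposed to DFX. All tumors descend from 1 cell line, and host transcripts of the mouse may add to the signal. The 6 arrays shared 1 slide, the control tumors filling row 1 and those exposed to DFX row 2, so slide row and treatment cannot be told apart.

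In a resting or early G1 cell, the retinoblastoma protein RB1 and its relatives p107 (RBL1) and p130 (RBL2) bind E2F proteins and keep their target genes silent. Cyclin-dependent kinases phosphorylate these pocket proteins, and the activator E2Fs, E2F1, E2F2 and E2F3, are then free to raise the genes of nucleotide synthesis and DNA replication. E2F4 and E2F5 act mainly as repressors with p107 and p130, E2F6 represses with a Polycomb complex and without pocket proteins, and the atypical E2F7 and E2F8 repress E2F targets later in the cycle. All but the atypical members bind DNA together with a DP partner, TFDP1 or TFDP2.

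The E2F genes can be targets of the family themselves, so the promoter windows of the members were searched for E2F motifs. RefSeq windows on GRCh38.p14, from 250 bases before to 50 bases after a gene's start, were at hand for 8 of the 10 genes, with E2F5 and E2F8 not matched. The motifs TTTCCCGC, TTTCGCGC, TTTGGCGC and TTTGCCGC were looked for on both strands, and 3.31% of 35116 promoter windows held at least 1 of them. Of the 8 genes, 4 held at least 1, namely E2F1, E2F2, E2F3 and TFDP1, each in 1 window. The 8 genes had 11 windows in all, and the share above counts windows, not genes. Positions give the first base of a match relative to the start, with a minus sign for bases before it. The E2F1 window had TTTGGCGC at -20 and TTTGCCGC on the opposite strand at -33. The E2F2 window had TTTGGCGC at -42, and the E2F3 window had TTTCCCGC on the opposite strand at -53. The 160 bases around the starts of the activator genes are shown because these windows hold the motifs nearest to a start, with the matches in capitals (opposite-strand matches read as GCGGCAAA and GCGGGAAA). They lie at chr20:33686356-33686515 on the minus strand for E2F1, at chr1:23531204-23531363 on the minus strand for E2F2 and at chr6:20401749-20401908 on the plus strand for E2F3.
E2F1: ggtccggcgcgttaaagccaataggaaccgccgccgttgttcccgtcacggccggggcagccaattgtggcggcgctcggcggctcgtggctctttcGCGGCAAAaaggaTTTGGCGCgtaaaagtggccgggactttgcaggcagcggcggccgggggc
E2F2: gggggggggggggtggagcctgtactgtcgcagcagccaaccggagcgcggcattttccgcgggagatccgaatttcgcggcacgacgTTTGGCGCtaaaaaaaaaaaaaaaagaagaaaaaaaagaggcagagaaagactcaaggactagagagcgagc
E2F3: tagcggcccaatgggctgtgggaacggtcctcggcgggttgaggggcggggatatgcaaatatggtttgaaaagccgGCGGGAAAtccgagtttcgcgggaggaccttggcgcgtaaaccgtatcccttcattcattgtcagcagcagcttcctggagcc
The fourth gene, TFDP1, had TTTCGCGC on the opposite strand at -120. The windows of E2F4, E2F6, E2F7 and TFDP2 held none of these letters, and a match or its absence is a description of the sequence only.

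Each value below is a log2 intensity after quantile normalization, and each difference is DFX minus control on that log2 scale with its standard error (SE) from limma. Adjusted p-values are by Benjamini-Hochberg over all 31807 tested probes. Arrays had between 50.3% and 56.5% of probes well above background, the lowest on the array of DFX replicate 2, and no spot was saturated. Correlations between arrays ran from 0.983 to 0.990 among control tumors, from 0.984 to 0.987 among DFX-treated tumors and from 0.980 to 0.988 between the groups. The 7 ductal epithelial markers KRT7, KRT8, KRT18, KRT19, EPCAM, CDH1 and MUC1 were all well above background, as the label of the cell line requires. In RNA from whole tumors, fewer cells of a type and less RNA per cell cannot be told apart. The labels say only that the tumors are separate samples. The p-values weigh the difference between the groups against the spread between tumors within the groups.

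Of the 15 probes, 2 differed at an unadjusted p under 0.05, those of E2F1 and E2F2, and both were higher in the DFX-treated tumors. Across all tested probes, 8.41% passed this threshold, 3.46% higher and 4.95% lower. The same 2 probes had no overlap between the groups, which held for 15.5% of all tested probes (6.34% higher and 9.15% lower). No member passed after adjustment, with adjusted p-values from 0.513 to 0.973, and no probe of the array did either, the lowest being 0.0675. Over the 15 probes, 6 differences lay above 0 and 9 below, with a median of -0.06, whereas 45.6% of all tested probes lay above 0 and their median was -0.02.

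**Figure D1:**
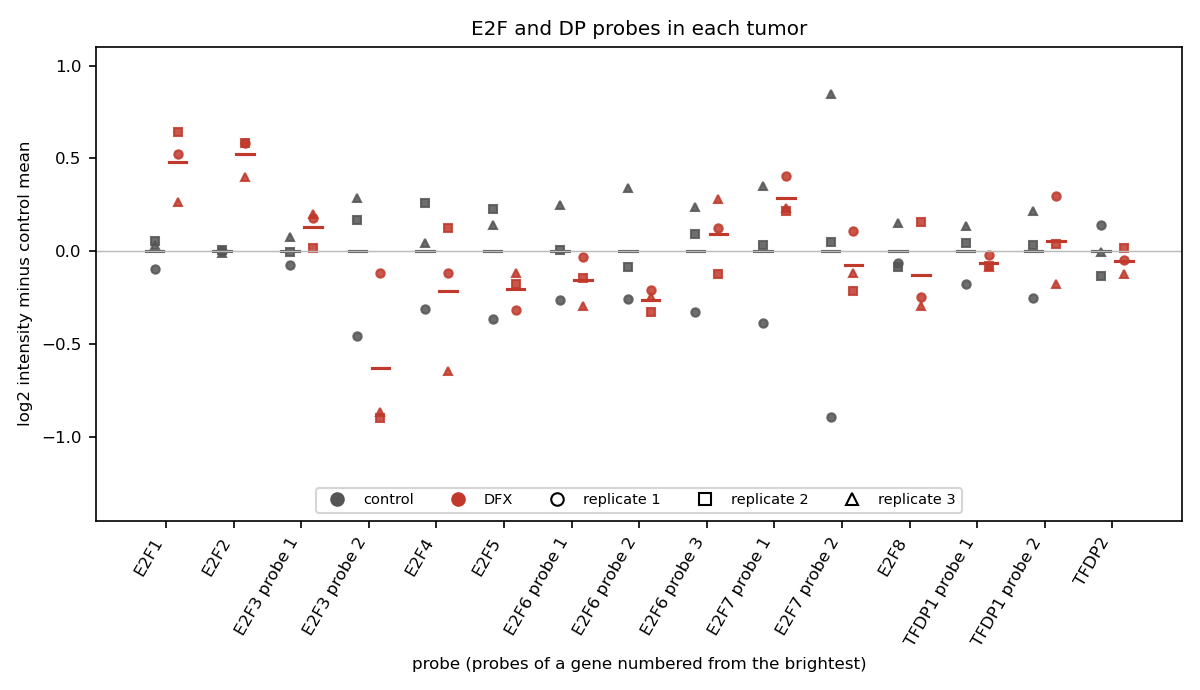
Log2 intensity of each E2F and DP probe in each tumor, minus the mean of the 3 control tumors for that probe (vertical axis), for 15 probes (horizontal axis). Grey symbols are control tumors, red symbols are DFX-treated tumors, the symbol's shape gives the replicate and short bars are group means. The groups are separate for E2F1 and E2F2 and overlap for the other 13 probes.

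E2F1 is the activator that is also known for inducing apoptosis genes. Its probe, at chr20:32263989-32264048 on the minus strand of hg19, read 9.38, 9.53 and 9.51 in control replicates 1, 2 and 3 and 10.0002, 10.12 and 9.74 in DFX replicates 1, 2 and 3. Every DFX-treated tumor lay above every control tumor, DFX replicate 3 being the closest to the controls. The mean log2 intensity was 9.47 ± 0.08 (SD, n = 3) in control and 9.95 ± 0.19 (SD, n = 3) in DFX-treated tumors. The difference was 0.48 (SE 0.13), 39.3% higher with DFX on the linear scale, with a 95% interval from 0.15 to 0.81, an unadjusted limma p of 0.0117 and an adjusted p of 0.514. This probe was printed in 10 spots on each array, of which 1 spot value in control replicate 1 was left out as an outlier. The SD of the log2 intensity over the spots of one tumor was 0.04 to 0.08, which measures the spots of an array and not the spread between tumors. With arrays scaled by their medians in place of quantile normalization, the E2F1 difference was 0.37 with an unadjusted p of 0.0735. That scaling set the median of all tested probes at -0.10.

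E2F2, an activator with roles close to those of E2F1 in proliferating cells, gave the lowest p of the family. Its probe, at chr1:23832933-23832992 on the minus strand of hg19, read 10.94, 10.95 and 10.93 in control and 11.53, 11.53 and 11.34 in DFX-treated tumors. The 3 control values were nearly the same, and all 3 DFX values were above them. The mean log2 intensity was 10.94 ± 0.0083 (SD, n = 3) in control and 11.46 ± 0.11 (SD, n = 3) in DFX-treated tumors. The difference was 0.52 (SE 0.10), 43.6% higher with DFX on the linear scale, with a 95% interval from 0.27 to 0.78, an unadjusted limma p of 0.00236 and an adjusted p of 0.513. By p it ranked 142 among the 31807 tested probes, and E2F1 ranked 711. The E2F2 difference kept its side of the unadjusted threshold when any 1 tumor was left out, with values from 0.49 to 0.58, as did that of E2F1, with values from 0.40 to 0.58.

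E2F3, the activator that is broadly required for S phase entry, had a bright and a dim probe that pointed in opposite directions. The bright probe, at chr6:20493845-20493904 on the plus strand of hg19, read 9.67, 9.74 and 9.82 in control and 9.92, 9.76 and 9.94 in DFX-treated tumors. DFX replicate 2 lay among the controls, and the other two DFX values were above all of them. The difference of the bright probe was 0.13 (SE 0.11), with a 95% interval from -0.13 to 0.40, an unadjusted p of 0.271 and an adjusted p of 0.751. The dim probe, at chr6:20490602-20490661, read 4.78, 5.40 and 5.52 in control and 5.12, 4.33 and 4.37 in DFX-treated tumors. DFX replicates 2 and 3 were the lowest of the 6 and DFX replicate 1 lay among the controls. The difference of the dim probe was -0.63 (SE 0.29), with a 95% interval from -1.35 to 0.09, an unadjusted p of 0.0771 and an adjusted p of 0.627. This probe was well above background in 3 control tumors but in only 1 DFX-treated tumor. Its unadjusted p was 0.0283 without control replicate 1 and 0.0177 without DFX replicate 1, where the differences were -0.85 and -0.88. It was -0.48 without control replicate 3, -0.20 with normexp background correction and -0.17 from the raw mean signal, with unadjusted p-values of 0.205, 0.0941 and 0.125.

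The bright and dim E2F3 probes do not read the same stretch of their transcripts, and their last 30 of 60 bases are shown for this reason, with those of the E2F2 probe, which had the lowest p of the family. Capitals mark a polyadenylation hexamer, ATTAAA for E2F2 (the match nearest the end) and AATAAA for the bright E2F3 probe, and the stop codon that ends the open reading frame covered by the dim E2F3 probe.
E2F2 probe: ttgagataattgggcattaaacATTAAAct
E2F3 bright probe: acttcaaatgggtgtaatttgAATAAAttt
E2F3 dim probe: ccactggtggaagacttcatgtgtagtTGA
The bright E2F3 probe thus carries a polyadenylation hexamer in its last bases, and the dim one ends at a stop codon upstream of it. Positions of probes are on hg19, as the annotation in the scanner files gives them, and no exon annotation of that build was used here.

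E2F4 is the most abundant repressor E2F of many cell types and works with p107 and p130. Its probe spanned 280 bases of the genome, at chr16:67231510-67231789 on the plus strand, more than the 60 bases of a probe. It read 8.78, 9.35 and 9.13 in control and 8.96, 9.21 and 8.44 in DFX-treated tumors. The groups overlapped, with DFX replicate 3 the lowest of all. The difference was -0.21 (SE 0.25), with a 95% interval from -0.81 to 0.39 and an unadjusted p of 0.418, and it was 0.0016 without DFX replicate 3.

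E2F5, the other repressor that needs a pocket protein, read 5.75, 6.34 and 6.26 in control and 5.80, 5.94 and 6.00 in DFX-treated tumors. Control replicate 1 was below all DFX-treated tumors and the other two controls were above them. The difference was -0.20 (SE 0.18), with a 95% interval from -0.65 to 0.24 and an unadjusted p of 0.308. Without control replicate 1 the difference was -0.39, with an unadjusted p of 0.0287 and an adjusted p of 0.576. Without control replicate 2 it was -0.090 (unadjusted p 0.664) and without control replicate 3 -0.13 (unadjusted p 0.550), and normexp background correction, the raw mean signal and 75th percentile scaling gave values from -0.12 to -0.10.

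E2F6 had 3 probes, and the groups overlapped in each. The probe at chr2:11585524-11585583 read 9.44, 9.71 and 9.95 in control and 9.67, 9.56 and 9.41 in DFX-treated tumors, a difference of -0.16 (SE 0.16). The probe at chr2:11586461-11586520 read 7.21, 7.38 and 7.81 in control and 7.26, 7.14 and 7.22 in DFX-treated tumors, a difference of -0.26 (SE 0.17). The third probe, at chr2:11605899-11605958, read 5.21, 5.63 and 5.77 in control and 5.66, 5.42 and 5.82 in DFX-treated tumors, a difference of 0.10 (SE 0.19). The unadjusted p-values were 0.376, 0.182 and 0.633, so the sign was not shared by the probes and none passed the threshold. All 3 lie on the minus strand of hg19, and control replicate 1 was the lowest control in each.

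E2F7, an atypical repressor that is itself induced by E2F1, had a bright and a dim probe. The bright probe, at chr12:77415520-77415579 on the minus strand, read 9.67, 10.09 and 10.41 in control and 10.46, 10.28 and 10.29 in DFX-treated tumors. Control replicates 1 and 2 lay below all DFX-treated tumors and control replicate 3 within their range. Its difference was 0.29 (SE 0.20), with a 95% interval from -0.21 to 0.78, an unadjusted p of 0.206 and an adjusted p of 0.722. Without control replicate 3 it was 0.46, with an unadjusted p of 0.0406 and an adjusted p of 0.615. Without control replicate 1 it was 0.093, with an unadjusted p of 0.573, and with median scaling 0.18. The dim probe, at chr12:77417576-77417635, read 3.97, 4.91 and 5.71 in control and 4.97, 4.65 and 4.74 in DFX-treated tumors. Its control values spread over more than the whole range of the DFX values, and the difference of -0.07 (SE 0.43) had a 95% interval from -1.12 to 0.97. Of the 15 probes of the family, this one and the dim E2F3 probe were the ones not well above background on all 6 arrays.

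E2F8, the other atypical repressor, read 7.21, 7.19 and 7.42 in control and 7.03, 7.43 and 6.98 in DFX-treated tumors at chr11:19245675-19245734 on the minus strand. DFX replicates 1 and 3 were the lowest of the 6 tumors, whereas DFX replicate 2 was as high as the highest control. The difference was -0.13 (SE 0.16), with a 95% interval from -0.52 to 0.27 and an unadjusted p of 0.457.

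The DP partners gave the smallest differences of the family by role, from -0.06 to 0.05. TFDP1, the main DP protein, read 10.98, 11.20 and 11.30 in control and 11.14, 11.08 and 11.08 in DFX-treated tumors at its bright probe, at chr13:114295314-114295373 on the plus strand. All 3 DFX values lay inside the control range, and the difference was -0.06 (SE 0.12), with a 95% interval from -0.35 to 0.23 and an unadjusted p of 0.624. Its second probe, which spanned 465 bases at chr13:114290388-114290852, read 7.27, 7.55 and 7.74 in control and 7.81, 7.56 and 7.34 in DFX-treated tumors, a difference of 0.05 (SE 0.18). TFDP2, at chr3:141671355-141671414 on the minus strand, read 10.25, 9.98 and 10.10 in control and 10.06, 10.12 and 9.99 in DFX-treated tumors. Its DFX values were also inside the control range, and the difference was -0.05 (SE 0.12), with a 95% interval from -0.34 to 0.23 and an unadjusted p of 0.668.

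**Figure D2:**
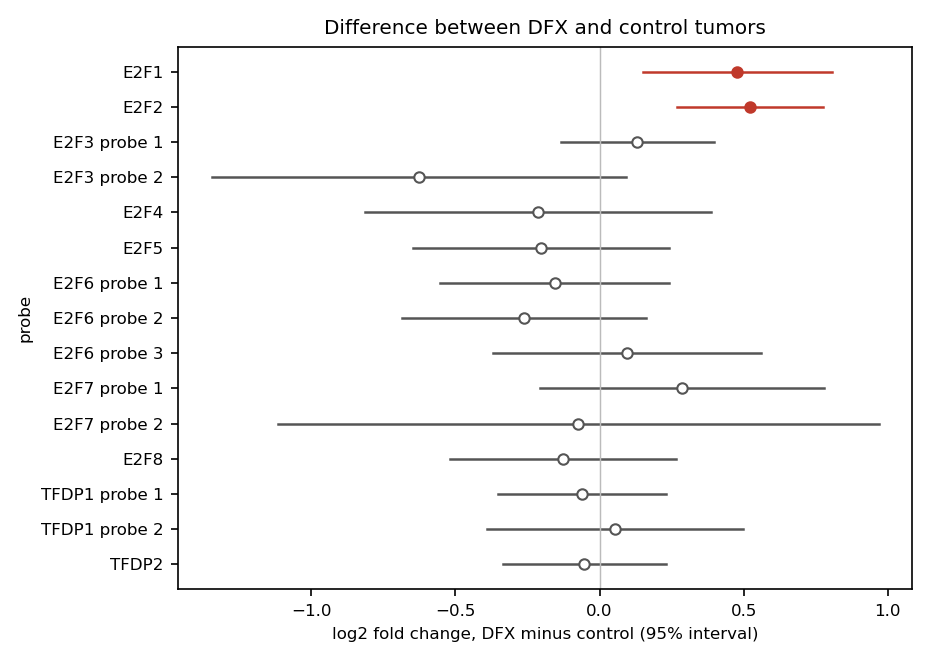
Difference between DFX-treated and control tumors (log2 fold change, horizontal axis) for each of the 15 E2F and DP probes (vertical axis), with 95% intervals from limma and n = 3 tumors per group. Filled red points are the 2 probes with an unadjusted p under 0.05, E2F1 at 0.48 and E2F2 at 0.52, and open points are the other 13, whose intervals include 0.

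By role, the 4 activator probes ran from -0.63 to 0.52, the 2 probes of the pocket protein dependent repressors from -0.21 to -0.20, the 3 E2F6 probes from -0.26 to 0.10 and the 3 atypical probes from -0.13 to 0.29. The median SE of the 15 probes was 0.17, the same to 2 decimals as over all tested probes. The SE of single member probes ran from 0.10 for E2F2 to 0.43 for the dim E2F7 probe. With 3 arrays per group, precision is limited by their number.

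Above the family stand the pocket proteins and the kinases and inhibitors that act on them. Of 15 such genes, 14 were tested by their brightest probe and none passed an unadjusted p under 0.05, where 7.98% of the 22718 tested genes did (3.68% higher and 4.29% lower). RB1 differed by 0.02 (SE 0.10, unadjusted p 0.841), RBL1 by 0.16 (SE 0.19, unadjusted p 0.452) and RBL2 by -0.07 (SE 0.13, unadjusted p 0.587). The differences of this list lay above 0 for 10 genes and below for 4, with a median of 0.03 against -0.01 over all tested genes.

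Below the family stand its target genes of the G1/S transition and S phase, which encode cyclin E, replication licensing and fork proteins and the enzymes of nucleotide synthesis. All 44 listed genes were tested, and 1 passed the unadjusted threshold, which is 2.27% of the list against 7.98% of all tested genes. It was higher in the DFX-treated tumors and did not pass after adjustment, and no gene of the list passed with median scaling or without control replicate 1 or 2 or DFX replicate 1 or 2.

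Of the 44 targets, 31 differences lay above 0 and 13 below, whereas 47.7% of all tested genes lay above 0. The median difference of the list was 0.11, but it ran from -0.04 without control replicate 1 to 0.22 without control replicate 3. It was 0.02 without DFX replicate 1, 0.0042 with median scaling, 0.07 with normexp background correction and 0.18 with array quality weights. The range was -0.22 for PRIM1, a primase subunit, to 0.54 for CLSPN, the checkpoint adaptor claspin. The groups did not overlap for 3 of the 44 genes, all higher with DFX, where 6.34% of all tested probes were higher without overlap. Among the 3 were CLSPN, which read 5.22, 5.83 and 6.15 in control and 6.28, 6.33 and 6.21 in DFX-treated tumors (SE 0.24, unadjusted p 0.0667), and POLA1, the catalytic subunit of DNA polymerase alpha, which differed by 0.15 (SE 0.10, unadjusted p 0.188). CLSPN, POLA1 and PRIM1 were singled out after their values were seen.

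The classical E2F targets CCNE1, CCNE2 and CDC6 did not pass. CCNE1, a cyclin E gene that drives S phase entry, differed by 0.02 (SE 0.21, unadjusted p 0.945), and CCNE2, its close relative, by 0.14 (SE 0.13, unadjusted p 0.309). CDC6, a replication licensing factor, differed by -0.01 (SE 0.42, unadjusted p 0.975), with a probe not well above background on 1 of the DFX arrays. Among the 8 apoptosis genes that E2F1 can activate, none passed by its brightest probe, where 7.98% of all tested genes did. Of the 8, 4 lay above 0 and 4 below, and the median was 0.03. BCL2L11, which encodes the cell death activator BIM, differed by -0.16 (SE 0.23, unadjusted p 0.514) at its brightest probe, while its other probes differed by -0.41 (SE 0.11, unadjusted p 0.0114) and 0.08 (SE 0.23, unadjusted p 0.725).

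**Figure D3:**
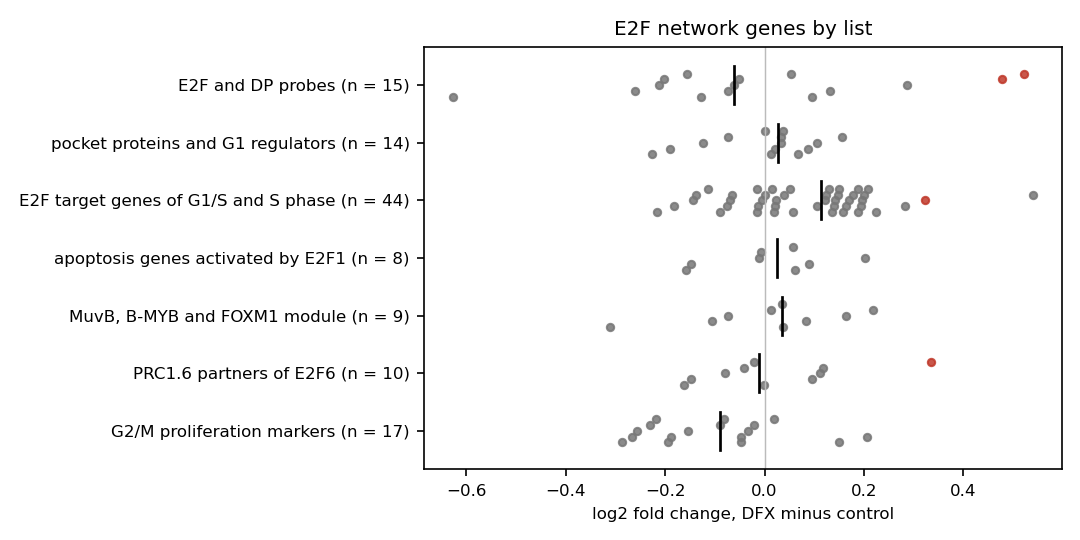
Log2 fold change, DFX minus control (horizontal axis), of the 15 E2F and DP probes and of each tested gene, by its brightest probe, in 6 lists around the family (rows). Each point is 1 probe or gene, black bars are medians and red points have an unadjusted p under 0.05. The red points, E2F1 and E2F2, 1 of the G1/S and S phase targets and WDR5, all lie to the right of 0.

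MuvB is the core that joins the pocket protein p130 and E2F4 in resting cells and B-MYB and FOXM1 later in the cycle. None of the 9 genes of this module passed by its brightest probe, where 7.98% of all tested genes did. MYBL2, which encodes B-MYB and is an E2F target, differed by 0.22 (SE 0.30, unadjusted p 0.487), and FOXM1, the mitotic gene activator, by 0.08 (SE 0.26, unadjusted p 0.762). A less bright probe of DYRK1A, the kinase that triggers assembly of the repressive complex, differed by -0.46 (SE 0.15, unadjusted p 0.0209), while its brightest probe differed by 0.01 (SE 0.12, unadjusted p 0.917) and the remaining one by 0.15 (SE 0.18, unadjusted p 0.425).

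E2F6 works within the Polycomb complex PRC1.6. Of its 11 listed partners 10 were tested, and WDR5, a WD repeat scaffold also found in histone methyltransferase complexes, passed at 0.33 (SE 0.13, unadjusted p 0.0421, adjusted p 0.581). That is 1 of 10 genes, near the 7.98% of all tested genes that passed. WDR5 read 12.43, 12.61 and 12.21 in control and 12.75, 12.76 and 12.74 in DFX-treated tumors, so the DFX values were close together and above the controls. Its call is lost under median scaling, with array quality weights, and without control replicate 1 or 3 or any 1 of the DFX-treated tumors. The other 9 partners did not pass, and the list's median was -0.01.

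The G2/M proliferation markers carried no call by brightest probe among 17 genes, where 7.98% of all tested genes passed. Of the 17, 14 lay below 0 and 3 above, with a median of -0.09. MKI67, which encodes the antigen Ki-67, differed by 0.21 (SE 0.18, unadjusted p 0.301) at its brightest probe, while another of its probes differed by 0.35 (SE 0.14, unadjusted p 0.0399) and the remaining one by -0.16 (SE 0.30, unadjusted p 0.616). TOP2A, the topoisomerase of dividing cells, differed by -0.22 (SE 0.22, unadjusted p 0.350). The median of this list ran from -0.28 without control replicate 1 to 0.08 without control replicate 3. It was -0.20 with median scaling, -0.15 without DFX replicate 1, -0.17 without DFX replicate 2, 0.07 without DFX replicate 3 and 0.03 with array quality weights.

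The tumors of each group differed among themselves in these lists by more than the groups did. Relative to the control mean, the median of the 44 G1/S and S phase targets stood at -0.24, -0.03 and 0.24 in control replicates 1, 2 and 3 and at 0.22, 0.07 and -0.05 in DFX replicates 1, 2 and 3. The median of the 17 G2/M markers stood at -0.37, -0.06 and 0.41 in control and at 0.05, 0.10 and -0.33 in DFX-treated tumors. Control replicate 1 was the lowest and control replicate 3 the highest tumor in both lists, and the groups overlapped. E2F1 and E2F2 did not share this spread from control replicate 1 to control replicate 3, whereas the bright E2F7 probe did. E2F1 was still lowest among the controls in control replicate 1. Among the DFX-treated tumors, E2F1, E2F2 and both lists were lowest in DFX replicate 3.

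**Figure D4:**
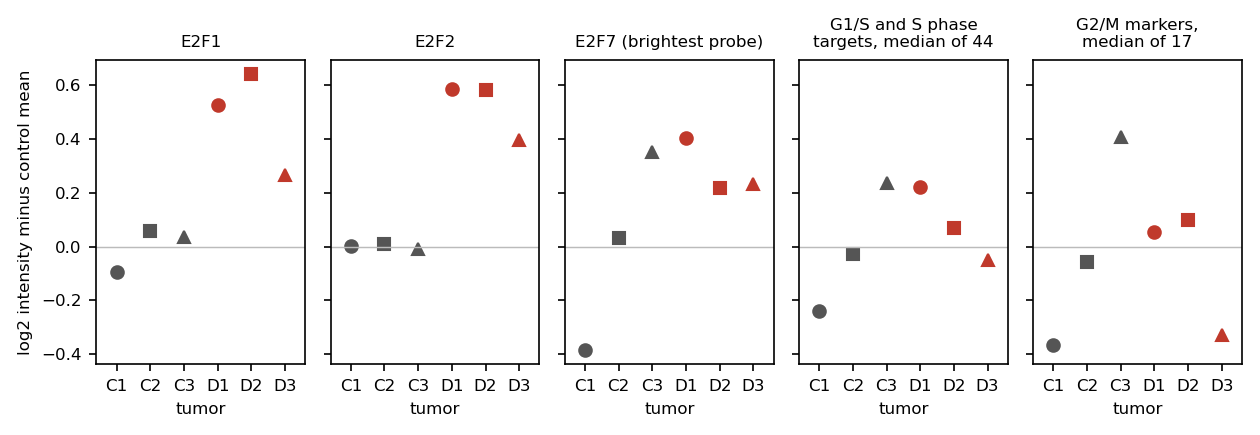
Log2 intensity minus the control mean (vertical axis) in each tumor (horizontal axis, C for control and D for DFX-treated, numbered by replicate) for E2F1, E2F2 and the brightest E2F7 probe, and the median over 44 G1/S and S phase targets and over 17 G2/M markers. E2F1 and E2F2 separate the groups, while E2F7 and both lists spread from control replicate 1 to control replicate 3 over a range that the DFX-treated tumors overlap.

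The profiles nearest to a member over the 6 tumors were found among 20256 probes, by the root mean square difference of mean-centred log2 values. With 6 values per profile and so many probes compared, a close match does not show shared regulation, which was not tested. E2F1, whose own root mean square from its mean was 0.27, was nearest to ZNF728, a zinc finger gene, at 0.046, followed by both AKR1B10 probes, for an aldo-keto reductase, at 0.051 and 0.054. E2F2, with 0.27 of its own, was nearest to ZNF493 at 0.042 and 0.056 for its probes and to ZNF85 at 0.061, both zinc finger genes. E2F8, with 0.18, was nearest to SIGLEC11, a sialic acid binding receptor, at 0.028, to CRYAA, a lens crystallin, at 0.036 and to CABP5, a calcium binding protein, at 0.037. Several of the zinc finger genes belong to large families of similar sequence, so their probes may share signal with relatives.

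Some cell type markers differed between the groups beside E2F1 and E2F2. Across all tested genes, 7.98% passed the unadjusted threshold, 3.68% higher and 4.29% lower. The summed linear intensity of the 7 ductal epithelial markers was 627330 to 629457 in control and 641271 to 655173 in DFX-treated tumors, without overlap, and KRT8, KRT18 and EPCAM passed the unadjusted threshold, all higher. That of 8 red blood cell markers was 6778 to 8063 in control and 3158 to 3303 in DFX-treated tumors, with the hemoglobin genes HBA2 and HBD lower by the unadjusted threshold and AHSP well above background on no array. The sums overlapped between groups for fibroblast markers (13675 to 22653 against 12662 to 15638), where DCN was lower and LUM higher and PDGFRB was well above background on no array. They also overlapped for leukocyte markers (4655 to 6874 against 5025 to 6057, with no gene called and CSF1R well above background on no array) and endothelial markers (573 to 988 against 613 to 646, with PECAM1 higher, ENG lower and KDR well above background on no array). Such sums weigh the brightest markers most. Among the ductal markers these were KRT19, which differed by 0.02, and KRT7, which differed by -0.17, and neither passed the unadjusted threshold. KRT19 read 18.54, 18.44 and 18.44 in control and 18.44, 18.50 and 18.54 in DFX-treated tumors. Its values overlapped between the groups and recurred across arrays, so the gap between the ductal sums depends on small steps of this marker. The part of the cell type markers in the E2F1 and E2F2 differences was not tested.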

How the data were processed

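The authors deposited a scanner file for each of the 6 arrays and a table of processed values. Per the file headers, Agilent Feature Extraction 10.7.1.1 wrote the intensities, on a linear scale and background-subtracted, and for each spot a p-value against its background (the submitters' processing notes and the study's methods name 9.5.1.1). The deposited table held intensities that differed by a median of 0.185% from quantile normalization on the linear scale.

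After the study's methods, the processed signal of 58717 non-control spots was log2-transformed and quantile-normalized. Here 1398 outlier spot values were left out, spots were averaged per probe, and a probe was kept where its background p-value was under 0.05 on each of the 6 arrays. Of the tested probes, 4 were fitted without a tumor whose spots were outliers, none of them a member. Groups and replicate numbers came from the labels. The comparison used limma 3.58.1 (lmFit, eBayes, prior degrees of freedom 2.04) under R 4.3.3, with a cutoff at an unadjusted p under 0.05. The study names p under 0.05 as its cutoff and does not say whether it was adjusted. For animal experiments in general the methods name Kruskal-Wallis H tests, run here as an alternative. The fit was tested on simulated data. Genes of the lists are given by the brightest probe that was tested.

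The members, the 6 gene lists and the 5 marker lists were chosen with earlier results of these data known. Named were all members, in each list up to 4 genes with the lowest p under 0.05, RB1, RBL1, RBL2, CCNE1, CCNE2, CDC6, MYBL2, FOXM1, MKI67 and TOP2A in any case, and the 3 probes nearest to E2F1, E2F2 and E2F8. Other genes were named after their values were seen, and some items that this rule names are not reported here. Promoter windows were also searched for the CCAAT box, held by 34.6% of the windows and by those of E2F1, E2F3, E2F7 and TFDP2. The cell cycle homology motif TTTGAA was held by 15.2% of the windows and by those of E2F3 and TFDP2. Its variant TTCGAA was held by 1.45% of the windows and by no member's. Alternatives covered scaling, background correction, signal column, filters, outlier flags, the authors' values, the test, blocks, array weights, averaging over a gene's probes and leaving out single tumors.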

Additional observations from a re-analysis of the deposited data

How the results depend on the processing

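Over 20 alternatives, 283 of 298 differences of single E2F and DP probes kept their sign and their side of the unadjusted threshold. E2F2 passed in all 20 (0.40 to 0.58) and E2F1 in all but median scaling (0.37 to 0.58), and the adjusted p-values of both stayed between 0.306 and 0.825. Median scaling left 1 member probe called, and leaving out single tumors gave 2 to 4, the 4 being without control replicate 1. The sign of 10 differences changed, none of them past the threshold. With single tumors left out, E2F4 ran from -0.38 to 0.0016 (above 0 without DFX replicate 3), the dimmest E2F6 probe from -0.068 to 0.21 (below 0 without control replicate 1), the dim E2F7 probe from -0.52 to 0.35 (above 0 without control replicate 3), the bright TFDP1 probe from -0.15 to 0.0067 (above 0 without control replicate 3), the other TFDP1 probe from -0.073 to 0.17 (below 0 without control replicate 1 and, at -0.069, without DFX replicate 1) and TFDP2 from -0.12 to 0.018 (above 0 without control replicate 1). The dim E2F7 probe was also 0.020 under 75th percentile scaling and 0.093 under array weights, and the other TFDP1 probe -0.020 under median scaling. Over all probes, 4927 were called by the Kruskal-Wallis H test that the methods name and 1889 to 2717 without single tumors. With 3 tumors against 3, the Kruskal-Wallis H test passes only probes without overlap between the groups. For E2F1 and E2F2 it therefore repeats their lack of overlap. Of the limma calls on quantile-normalized values, 58.8% were lower, against 42.6% under 75th percentile scaling and 71.8% under median scaling. Called G1/S and S phase targets numbered 0 under median scaling, 4 under array weights and 0 to 3 without single tumors. Called PRC1.6 partners numbered 0 under median scaling, 0 under array weights and 0 to 1 without single tumors, and called apoptosis genes 0 to 1. The medians of the pocket protein, apoptosis, MuvB and PRC1.6 lists each changed sign under at least 1 alternative, within -0.12 to 0.075. With the replicate number as a block, 2419 probes and 2 member probes were called, and no call of a member changed. Deviations of same-numbered tumors correlated at 0.016 to 0.027, and 0 of 6 tumors correlated best with their own number. Per the study, the tumors of each group were picked at random within their own treatment group, and no pairing of same-numbered tumors is described. The cause of these changes was not tested. Signal over background limits the dim E2F3 and E2F7 probes.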
